A study of Saccharomyces cerevisiae with 12 samples.

Results

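The regions described here are the ATAC-seq peaks on the HPRT1R construct, a synthetic human HPRT1 locus written in reversed base order and carried by budding yeast. They are the rows of the 6 HPRT1R peak lists that lie on the construct contig and start before 100 kb. This rule gave 251 peaks, 150 in YAC libraries and 101 in integrated libraries, out of 13746 peaks in the 12 lists of the series. In ATAC-seq the Tn5 transposase cuts and tags DNA that is not shielded by nucleosomes, and a peak is a stretch where cuts exceed the local background. The host was Saccharomyces cerevisiae BY4741, a haploid laboratory strain. In 3 HPRT1R libraries the construct was held on a yeast artificial chromosome (YAC) and cells grew in SC-Leu medium, and in the other 3 it was integrated on chromosome XI and cells grew in YPD. Format and medium therefore cannot be told apart. In the same 2 formats and media, 6 libraries carried HPRT1, the locus in its natural order, and they serve as the comparison. Whether replicates are separate isolates is not in the labels, and the p-values below cover only how far these libraries differ from one another.

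Budding yeast packs most of its DNA into short-linker nucleosome arrays, and its open sites lie mainly at gene promoters, where general regulatory factors, chromatin remodellers and stiff adenine-rich tracts keep nucleosomes off the DNA. Human sequence in reversed order keeps the base composition of the locus but has no evolutionary history of its own, and no yeast promoter was placed there by selection. The question put by the study was whether foreign DNA of this kind is open in yeast and how it stands beside the host chromosomes. Positions are those of the construct contig, counted from 1 at its first base; its sequence and any annotation of it were not used here.

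The 12 lists held 982 to 1343 peaks each, and every list held rows of its own construct contig. Read totals are unknown from peak lists. HPRT1R lists had 51, 52 and 47 members on the YAC and 38, 33 and 30 when integrated. The last member inside the 100 kb limit was at 98927 to 99067 in YAC replicate 2, with a fold enrichment of 2.26, and at 98014 to 98457 in integrated replicate 1, with 4.67. The next peak outside it, at 100543 to 101018 in YAC replicate 2, had a fold enrichment of 4.31. YAC libraries had 4, 5 and 5 peaks past the limit and integrated libraries had 0. Whether integrated copies carry the DNA past the limit is not known from the lists.

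Members lay closer together than peaks of the host in each of the 6 libraries, though the test did not pass 0.05 after adjustment. The first 100 kb of the contig carried 0.51, 0.52 and 0.47 peaks per kb in YAC libraries and 0.38, 0.33 and 0.30 in integrated libraries, against 0.0756 to 0.106 on the 16 nuclear chromosomes of the same 6 libraries. The contig was above the chromosomes in 6 of 6 libraries, by log2 2.16 or 4.48-fold (exact two-sided sign-flip permutation test, p = 0.0312, the smallest p it allows; adjusted p = 0.0781 over the 10 tests made here). Member peaks were weak within their lists by the authors' fold enrichment. Their median fold was 2.44, 2.72 and 2.35 in YAC libraries and 2.92, 3.32 and 2.97 in integrated libraries, against 3.26 to 4.02 for nuclear peaks. By the deposited -log10 q the order was reversed on the YAC, with member medians of 21.0, 20.6 and 15.6, against 4.38 to 5.80 for nuclear peaks. In integrated libraries the member medians were 4.68, 6.72 and 5.19, against 5.54 to 6.86 for nuclear peaks. With peaks of at least 3-fold enrichment only, the density difference was log2 1.13 (p = 0.0312, exact sign-flip permutation test). HPRT1 before 100 kb was also denser than the chromosomes over all peaks, by a mean log2 of 2.47 on the YAC and 1.22 when integrated.

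Spacing was short on the contig. Adjacent member summits lay a median of 1806, 1762 and 1900.5 bp apart in the 3 YAC libraries (1823 ± 70.8, mean ± SD) and 2393, 2536.5 and 3093 bp apart in the 3 integrated libraries (2674 ± 370). On the chromosomes of these 6 libraries the median distance between adjacent summits was 6479.5 to 8984 bp. All 6 contig values were below all 6 chromosomal values. HPRT1 shared the short spacing, with medians of 2036, 2183 and 1975 bp on the YAC and 3304, 3613 and 3976 bp when integrated. On the chromosomes of the HPRT1 libraries the medians were 6495 to 8425 bp. The closest pair of member summits in a library was 334 to 625 bp apart, and 4 to 10 distances per library were under 1 kb. Most distances on the YAC, 29 to 33 of 46 to 51, fell between 1 and 3 kb. The largest distance was 3967 to 5668 bp in YAC libraries and 7497 to 8331 bp in integrated libraries.

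**Figure D1:**
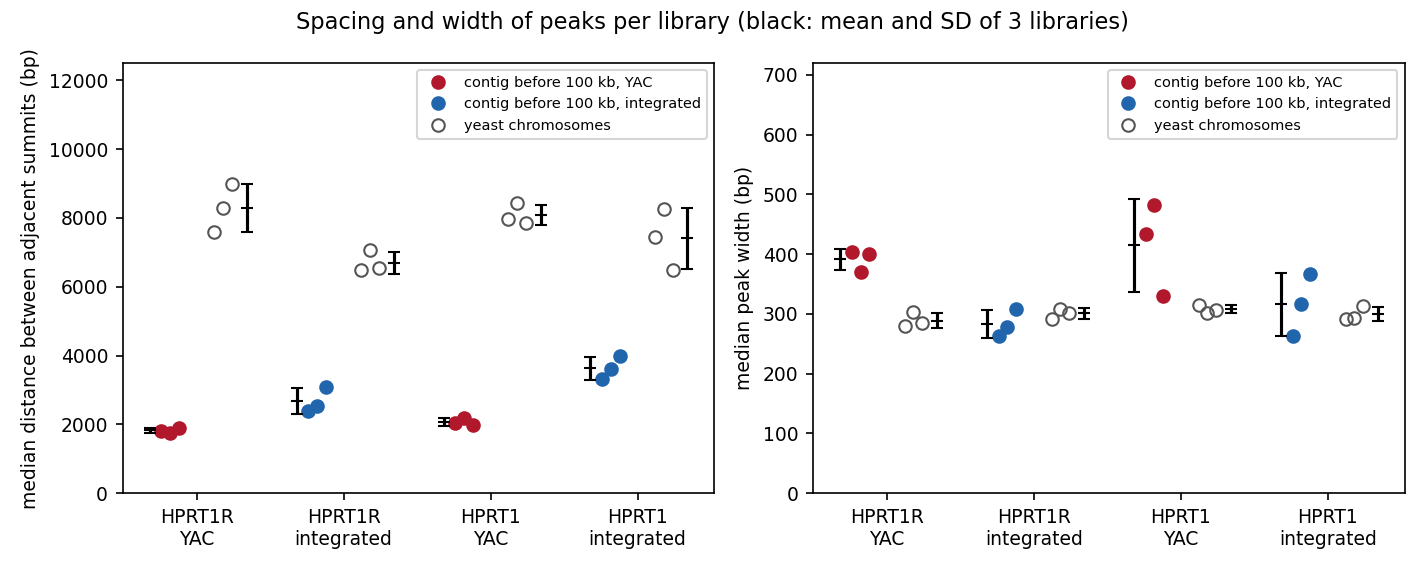
Median distance between adjacent peak summits (left, bp) and median peak width (right, bp) per library for HPRT1R and HPRT1 contigs before 100 kb (filled) and the yeast chromosomes of the same libraries (open), with the mean and SD of 3 libraries in black. HPRT1R distances of 1762 to 3093 bp lie below the chromosomal ones of 6479.5 to 8984 bp, and HPRT1R peaks are wider on the YAC (371 to 403 bp) than when integrated (263 to 308 bp).

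Members were spread evenly along the reversed sequence. Each of the 10 windows of 10 kb before 100 kb held 4 to 6 summits in YAC replicate 1, 3 to 6 in YAC replicate 2 and 4 to 5 in YAC replicate 3. In each integrated library a window held 2 to 5 summits, and no window was empty in any HPRT1R library. The fullest window over the 3 integrated libraries was 60001 to 70000, with 5 summits in each of them, and the emptiest over the YAC libraries was 70001 to 80000, with 11 in all. Summits divided between the 2 sides of position 50000 as 27 and 24, 27 and 25, and 24 and 23 in YAC libraries, and as 19 and 19, 16 and 17, and 14 and 16 in integrated libraries. HPRT1 was less even in its totals, with 23 summits over 3 YAC libraries in the window 10001 to 20000 and 8 in the window 70001 to 80000.

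The variance of window counts divided by their mean measures clustering, since evenly spread summits give a low value. It was 0.107, 0.205 and 0.0496 for HPRT1R on the YAC, against 0.444, 0.414 and 0.546 for HPRT1 on the YAC. In integrated libraries it was 0.281, 0.205 and 0.370 for HPRT1R, against 0.687, 0.520 and 0.667 for HPRT1. The values of the 2 constructs did not overlap in either format. The difference was -0.34 (p = 0.005, the least that permuting constructs inside each format exactly can give; adjusted p = 0.025), with -0.35 on the YAC and -0.34 when integrated (p = 0.1 each, exact permutation tests, the smallest that 3 against 3 allow). Windows of 5 kb gave -0.23 (p = 0.005, exact permutation test). In stretches of 100 kb along the chromosomes with at least 3 summits, the median of the same measure was 0.889 to 0.976 in the HPRT1R libraries. Of 110 to 112 such stretches per library, 0 to 2 had a value as low as that of HPRT1R; these stretches held at most 14 to 18 summits, fewer than the contig.

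**Figure D2:**
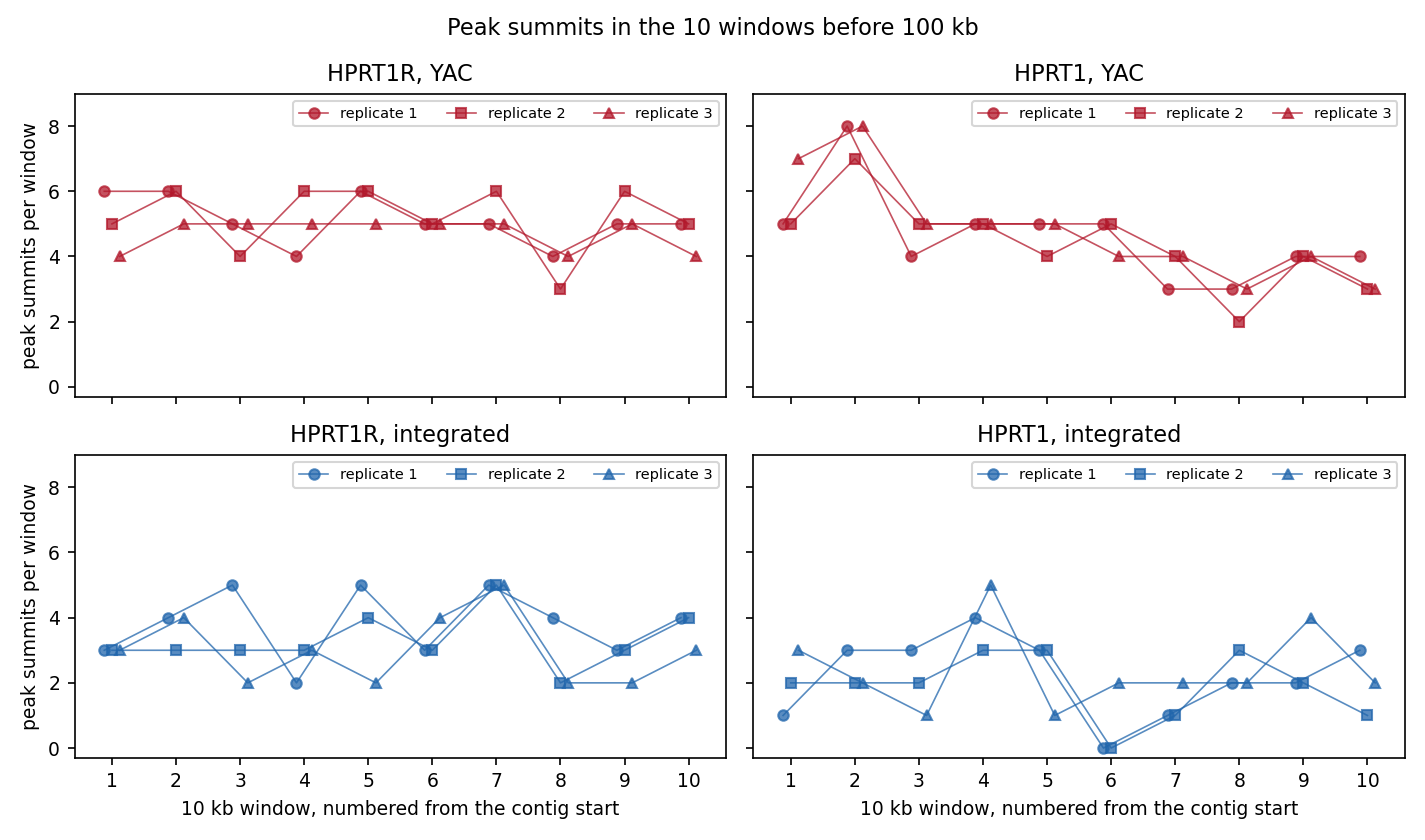
Number of peak summits in each 10 kb window, numbered from the contig start, for 3 replicates of HPRT1R (left) and HPRT1 (right) on the YAC (top) and integrated (bottom). HPRT1R windows hold 3 to 6 summits on the YAC and 2 to 5 when integrated, whereas HPRT1 windows hold 2 to 8 and 0 to 5.

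Distances between neighbouring summits varied less on HPRT1R as well. Their coefficient of variation (SD over mean) was 0.463, 0.582 and 0.471 for HPRT1R on the YAC, against 0.550, 0.565 and 0.613 for HPRT1. When integrated it was 0.647, 0.635 and 0.577 for HPRT1R, against 0.985, 0.978 and 0.815 for HPRT1. The values overlapped on the YAC and did not when integrated. The difference was -0.19 (p = 0.015, same exact permutation test; adjusted p = 0.05), with -0.07 on the YAC (p = 0.3) and -0.31 when integrated (p = 0.1, exact permutation tests). The largest distance in an integrated library was 8331, 8155 and 7497 bp for HPRT1R, against 20133, 20627 and 15323 bp for HPRT1. Both measures changed when weak peaks were left out. With peaks of at least 3-fold enrichment, 7 to 20 members per HPRT1R library remained. The clustering difference was then 0.23 (p = 0.165) and that of the coefficient of variation was 0.0757 (p = 0.36, exact permutation tests). At a -log10 q of at least 5 the clustering difference was -0.18 (p = 0.28, exact permutation test). Without peaks that start before 2 kb the clustering difference was -0.17 (p = 0.06, exact permutation test). In that setting the 10 windows were also redrawn from 2 kb to 100 kb, so their borders moved. The part of each change in the shift was not tested.

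HPRT1R also carried more peaks than HPRT1 relative to the chromosomes of the same library. HPRT1 lists held 46, 44 and 48 peaks before 100 kb on the YAC and 22, 19 and 24 when integrated. The density difference was log2 0.32, a 1.25-fold difference (p = 0.005, same exact permutation test; adjusted p = 0.025), with 0.15 on the YAC and 0.49 when integrated (p = 0.1 each, exact permutation tests). With peaks of at least 3-fold enrichment it was 0.31 (p = 0.18, exact permutation test). Median widths of HPRT1R and HPRT1 peaks differed by log2 -0.11 (p = 0.355, same exact permutation test), and by -0.36 (p = 0.005, exact permutation test) among peaks of at least 3-fold enrichment. The median local background at HPRT1R peaks, recovered from the deposited values, was 8.14 to 10.1 times the library-wide level in YAC libraries and 1.55 to 1.56 times in integrated ones, against 5.47 to 6.72 and 1.22 to 1.31 times for HPRT1. Its part in these differences was not tested.

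Some regions recurred in every library and others in few. Merged where they overlapped by at least 1 bp, the 251 members formed 57 regions that covered 29.5% of the first 100 kb. Of these, 22 recurred in every one of the 6 libraries, a share of 38.6%, where 28.4% of 1848 nuclear regions of the same libraries did. These 22 regions accounted for 140 of the 251 members. A further 9 regions held a peak in 5 libraries, 6 in 4, 4 in 3, 8 in 2 and 8 in 1, the last being 14% of regions against 28% of nuclear regions. On HPRT1, 12 of 52 regions (23.1%) recurred in this way. These shares were not tested against each other. Peaks covered 10.5% to 24.2% of the first 100 kb of HPRT1R, against 2.63% to 3.88% of the chromosomes. Peaks of different libraries can therefore overlap more easily on the contig without marking the same site. Regions in all 6 libraries had a median width of 595.5 bp, and those in only 1 library a median of 167.5 bp. A region spans all peaks merged into it, so part of this contrast follows from the merging itself.

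Most peaks of a list overlapped a peak of another list of its format. Between YAC libraries, 80.8% to 93.6% of the peaks of a list overlapped a peak of the other list, and between integrated libraries 65.8% to 84.8% did. The same shares are not given for nuclear peaks. With 10.5% to 24.2% of the first 100 kb in peaks, peaks can overlap without marking the same site. Across formats the shares depend on list length, since 30 to 38 integrated peaks were set against 47 to 52 YAC peaks that covered more bases. Of the peaks of an integrated list, 92.1% to 100% overlapped a peak of a YAC list, while 51.9% to 66.0% of the peaks of a YAC list overlapped a peak of an integrated list. Of the 101 integrated members, 100 lay in a region with a YAC peak. The remaining one, at 73529 to 73660, was the only region without a YAC peak, 1.75% of the 57, against 25.8% of nuclear regions and 1.92% of HPRT1 regions. Its fold enrichment was 2.40, and it was singled out after its values were seen. On the chromosomes list length ran the other way, so the nuclear share is no like background. Integrated lists held 1171 to 1284 nuclear peaks, against 913 to 1041 in YAC lists.

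**Figure D3:**
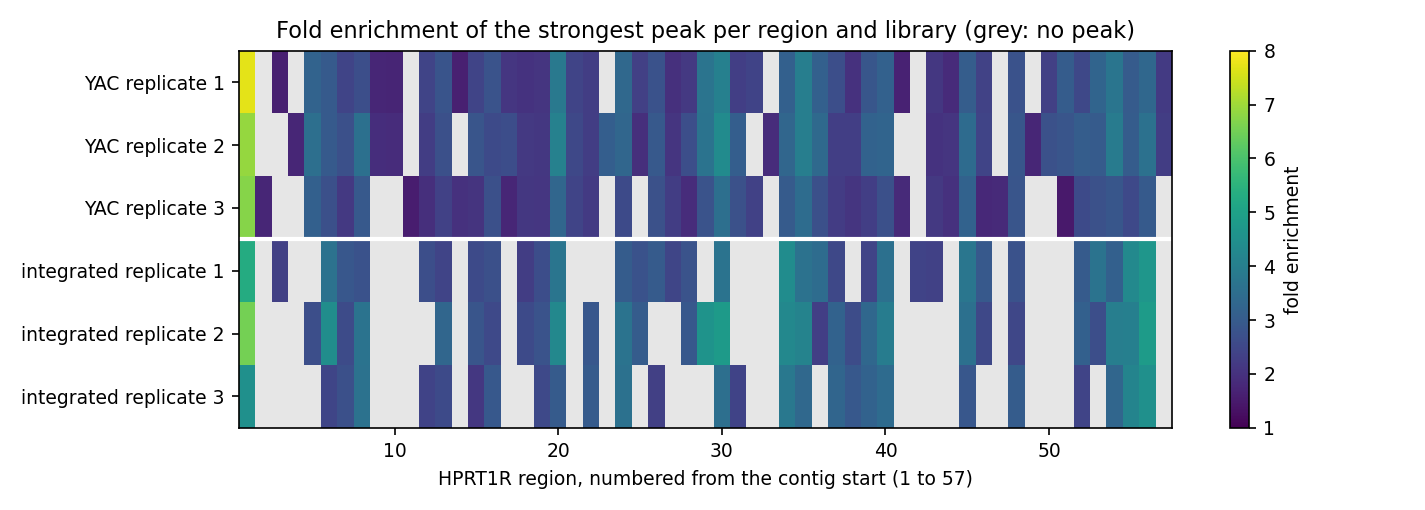
Fold enrichment of the strongest peak in each of the 57 HPRT1R regions, numbered from the contig start, in 3 YAC libraries (top) and 3 integrated libraries (bottom), with grey where a library has no peak. Region 1 is the strongest or tied for it in each library, 22 columns are filled in all 6 rows, and the integrated rows have more grey than the YAC rows.

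The recurrent regions were spaced along the whole contig. Each 10 kb window held the centre of 1 to 3 of the 22, and the centres of neighbours lay a median of 4781 bp apart. The closest neighbours were the regions at 56775 to 57366 and 57741 to 58336, 968 bp apart from centre to centre, and the farthest were those at 40792 to 41307 and 50019 to 50582, 9251 bp apart. Of 21 neighbouring pairs, 7 were less than 3 kb apart. The summit of a recurrent region moved between libraries by a median of 147 bp from the lowest to the highest of 6 positions. All 6 positions lie inside the merged region by construction, so its width bounds this range. The median width of these regions was 595.5 bp. In 4 regions the summit moved by less than 100 bp, and in 5 by more than 300 bp, all of them at least 797 bp wide.

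The region at the start of the contig, 33 to 1672, held the strongest peak of the members in every list, tied in integrated replicate 3 with the region at 98014 to 98504. Its fold enrichment was 7.73, 6.90 and 6.73 in YAC libraries and 5.30, 6.53 and 4.51 in integrated libraries. Its mean rank among the members of a list was 1.08, where 1 is the strongest. All YAC values were above all integrated values.

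The region at 50019 to 50582, near the middle of the reversed sequence, was the next by mean rank. Its fold enrichment was 4.05, 4.38 and 3.55 in YAC libraries and 3.67, 4.81 and 3.55 in integrated libraries. The values of the formats overlapped. The region at 98014 to 98504, close to the limit, had 3.34, 3.62 and 2.98 in YAC libraries and 4.67, 4.84 and 4.51 in integrated libraries. All integrated values were above all YAC values there.

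The adjoining regions at 56775 to 57366 and 57741 to 58336 formed a doublet. The left one had a fold enrichment of 3.14, 3.31 and 3.01 in YAC libraries and 4.40, 4.27 and 3.81 in integrated libraries. The right one had 3.99, 3.99 and 3.47 in YAC libraries and 3.65, 4.13 and 3.36 in integrated libraries. The integrated values lay above the YAC values in the left region and overlapped them in the right one. The region at 31882 to 32877 had 3.83, 4.08 and 3.32 in YAC libraries and 3.71, 4.27 and 3.00 in integrated libraries. The 10 highest by mean rank also took in 93170 to 94024, then 77159 to 78322, then 68895 to 70363, and last 96465 to 96899. The mean folds of these 4 were 2.86 to 3.51 in YAC libraries and 3.42 to 4.15 in integrated libraries. Fold enrichment is the authors' value and depends on local depth, so levels were not tested between formats. The mean was higher on the YAC in 5 and higher when integrated in 17 of the 22 recurrent regions. Nuclear peaks also had the higher median fold in integrated libraries, with 3.58, 4.02 and 3.58, against 3.57, 3.52 and 3.26 in YAC libraries. The same count over nuclear regions is not given here, so the direction is not shown to be particular to the contig.

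YAC and integrated copies were then compared directly. YAC libraries had more members relative to the chromosomes, by log2 0.90 or 1.87-fold, and members covered 24.2%, 23.2% and 22.8% of the first 100 kb on the YAC, against 11.4%, 11.0% and 10.5% when integrated. The covered share relative to the chromosomes differed by log2 1.46 or 2.76-fold. Median member width was 403, 371 and 400 bp on the YAC, against 263, 278 and 308 bp when integrated, a difference of log2 0.47 or 1.38-fold. Median spacing differed by log2 -0.54. No measure overlapped between formats, and each had p = 0.1 (exact two-sided permutation test, the smallest that 3 against 3 allow; adjusted p = 0.125). HPRT1 means moved in the same direction between formats. Its log2 density ratio was 2.47 on the YAC and 1.22 when integrated, covered share 23.2% and 7.90%, and median spacing 2065 and 3631 bp. Its median widths were 329.5 to 482.5 bp on the YAC and 263 to 367.5 bp when integrated, which overlapped. Nuclear peaks had median widths of 280 to 303 bp in YAC libraries and 291.5 to 309 bp in integrated libraries, so members were wider than nuclear peaks in 3 of 3 YAC and 1 of 3 integrated libraries (log2 0.17 over the 6, p = 0.25, exact sign-flip permutation test). Among peaks of at least 3-fold enrichment that difference was 0.42 (p = 0.0312, exact sign-flip permutation test).

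Local depth moved with the format. The median summit pileup of members was 145, 125 and 121 reads on the YAC, against 27, 30 and 28 reads when integrated, while at nuclear peaks it was 20 to 23.5 reads in these 6 libraries. The weakest member of a list had a fold enrichment of 1.49 to 1.74 on the YAC, against 2.12 to 2.29 when integrated. With peaks of at least 3-fold enrichment only, YAC and integrated densities were log2 0.03 apart (p = 0.9) and the spacing difference turned to 0.42 (p = 0.6, exact permutation tests). With peaks at a -log10 q of at least 5 the differences in density, covered share and spacing were larger, at log2 2.05, 2.29 and -1.55 (p = 0.1 each), and the width difference was smaller, at 0.13 (p = 0.3, exact permutation tests). The part of depth in the differences between formats was not tested otherwise. Along the contig the background at single members spanned 2.62 to 2.81-fold within a YAC library and 2.08 to 2.16-fold within an integrated library. In the 3 YAC libraries the window 1 to 10000, which holds the region at the contig start, had the lowest median background, 39.3, 35.0 and 35.0 reads, against highest window medians of 63.6, 55.3 and 59.0 reads.

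The recurrent regions were broader on the YAC. Their peaks covered more bases on the YAC by the mean in 22 of 22 regions, and in 15 of 22 the lowest YAC library was above the highest integrated library. Among the 525 nuclear regions with a peak in all 6 libraries, 2.1% had this pattern and 18.1% had the opposite one, which 0 of the 22 had. The median ratio of bases, YAC over integrated, was 1.46 in the recurrent regions and 0.884 in the nuclear ones. The widest regions serve only as examples, since they were picked by merged width, which long YAC peaks raise. At 68895 to 70363 peaks covered 1418, 1392 and 1438 bp in YAC libraries, against 632, 647 and 799 bp in integrated libraries. Each YAC library had 1 unbroken peak there, whereas 2 of 3 integrated libraries had 2 separate peaks. At 77159 to 78322 they covered 985, 1058 and 1133 bp on the YAC, against 414, 710 and 654 bp when integrated, and at 24008 to 25197 they covered 762, 611 and 626 bp, against 619, 278 and 431 bp. Of the 5 widest regions, those at 33 to 1672 and 24008 to 25197 overlapped between formats and the other 3 did not. In all, 8 of the 57 regions held more than 1 peak in some library, 4 of them in integrated libraries alone, 2 in YAC libraries alone and 2 in both.

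**Figure D4:**
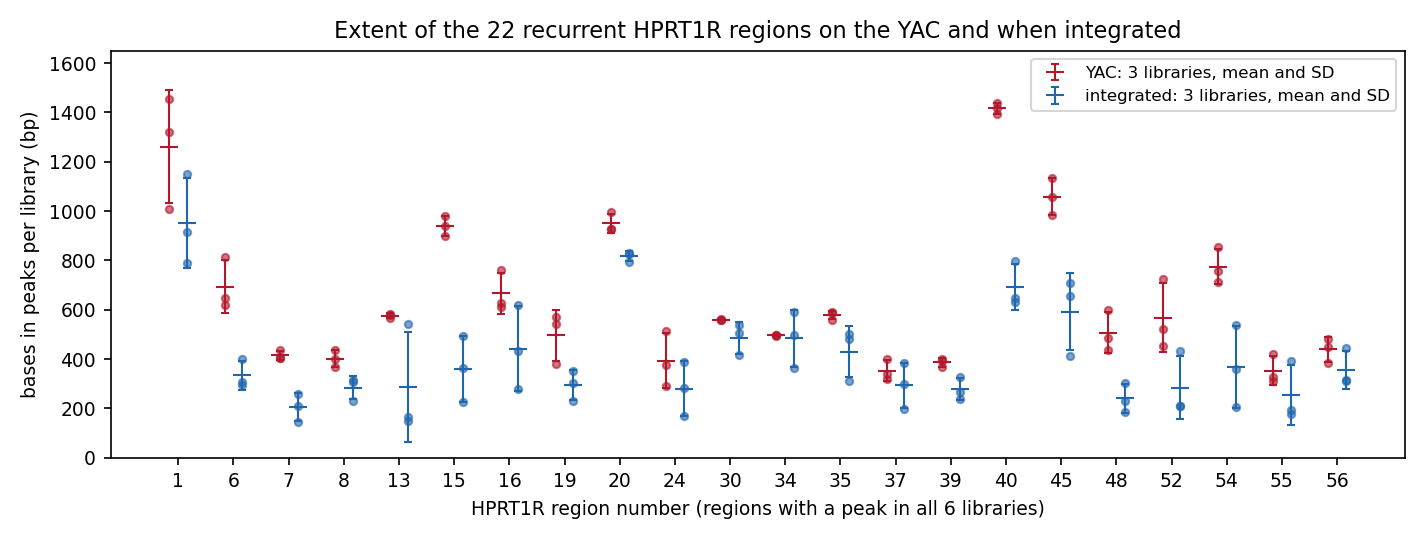
Bases covered by peaks (bp) in each of the 22 HPRT1R regions found in all 6 libraries, on the YAC (red) and integrated (blue); points are libraries, and bars are the mean and SD of 3. The YAC mean is higher in each of the 22 regions, and region 40 (68895 to 70363) has the widest gap between means, with 1392 to 1438 bp against 632 to 799 bp.

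YAC strength and recurrence in integrated libraries went together across regions, though not at every step. The YAC fold of a region was the mean over only those YAC libraries with a peak there. Of the 18 regions with no integrated peak, 4 had a peak in 3 YAC libraries. Regions with no integrated peak had a median YAC fold of 1.86, those with a peak in 1 integrated library 2.41, in 2 libraries 2.23 and in all 3 libraries 2.97. Spearman's rho between the mean YAC fold and the number of integrated libraries was 0.65 over 56 regions, which share libraries and depth. All 22 regions with a peak in 3 integrated libraries also had one in 3 YAC libraries, out of 40 regions with a peak in 3 YAC libraries.

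Only 4 regions held a peak in 3 YAC and 0 integrated libraries, 7.02% of the 57, where 0.162% of nuclear regions and 26.9% of the 52 HPRT1 regions did. They were at 26465 to 26871, with YAC folds of 2.11, 2.65 and 1.74, and at 35673 to 36000, with 2.42, 2.51 and 2.44. The others were at 76313 to 76686, with 1.86, 2.07 and 2.00, and at 86173 to 87075, with 3.03, 2.85 and 1.49. The last of these joins separate places: the summits were at 86224, 86224 and 87052, and the 880 bp peak of YAC replicate 1 linked the 240 bp peak of YAC replicate 2 with the 188 bp peak of YAC replicate 3. These folds ran from 1.49 to 3.03, across the 2.12 to 2.29 of the weakest integrated members. No region had the opposite pattern, which 2.16% of nuclear regions had. Integrated lists were the longer ones on the chromosomes and the shorter ones on the contig, so these nuclear shares are no like background. Leaving out YAC replicates 1, 2 and 3 in turn gave 3, 7 and 9 such regions, and leaving out the integrated replicates gave 6, 6 and 5. Of the 8 regions in only 1 library, 7 were in a YAC library, with folds of 1.57 to 1.88 apart from 3.09 at 39017 to 39174 in YAC replicate 2.

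Long stretches without any peak were rare on the reversed sequence. The 3 longest over all 6 libraries were 88711 to 91967 (3257 bp), 41710 to 44679 (2970 bp) and 58337 to 61184 (2848 bp). In integrated libraries alone the longest was 4572 bp, at 52203 to 56774, and 9 stretches exceeded 3 kb. The longest on HPRT1 was 4390 bp over its 6 libraries and 14902 bp over its integrated libraries.

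Recurrent places on the 2 constructs were set against each other by mirroring, as a description. The alignment was the one with the highest overlap of consensus bases over shifts in steps of 50 bp, where a position on HPRT1R and its counterpart on HPRT1 add up to 100752. There 33.9% of HPRT1R consensus bases (bases under a peak of 2 or 3 libraries in both formats) fell on HPRT1 ones, while the best alignment without mirroring gave 24.5%. At the mirrored alignment 51.6% of the bases in the 57 regions faced an HPRT1 region, with bases whose counterpart lay past 100 kb counted as facing none, while HPRT1 regions covered 30.2% of the first 100 kb. The share was 51.8% for the 22 recurrent regions and 51.4% for the other 35. The alignment was picked for the overlap of these same peaks, so the shares carry no test. The region at 68895 to 70363 lay wholly opposite an HPRT1 region found in all 6 libraries (counterpart 30389 to 31857), and so did 56775 to 57366 (43386 to 43977). The region at 77159 to 78322 had 1.80% of its bases opposite an HPRT1 region.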

How the data were processed

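Open chromatin was profiled by ATAC-seq in 12 yeast libraries, 3 per group. The authors deposited 1 MACS2 narrowPeak list per library, with no pooled list. The submitters' processing notes name the sacCer3 build and, for peaks, MACS2 2.1.0, with Bowtie2 2.2.9 and SAMtools 1.9 also listed. Their options for peak calling, duplicates and multi-mapping reads were not given in the sources used here. A deposited row holds a fold enrichment at the summit, a ratio to local background. It also holds the deposited -log10 of a p-value and a q-value, and a deposited score, which was not used.

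Members and lists were chosen with earlier results of these data known. Members were sorted by start, and their widths, summit distances and counts in 10 kb windows were computed per library (Python 3.11.15, SciPy 1.17.1). The 10 tests used exact two-sided permutations over libraries, with Benjamini-Hochberg adjustment over the 10. Nuclear densities used 12070.2 kb. Peaks of the 6 libraries that overlapped by at least 1 bp were merged into regions. Named regions were the 10 highest by mean rank among those in all 6 libraries, those in 3 libraries of a format and 0 of the other, the 5 widest, and the 3 longest peak-free stretches. Whole summit pileups and local backgrounds were recovered from the Poisson p-values of MACS2, taking 1 as pseudocount, within 0.01 of the deposited -log10 p. The methods were tested on simulated data.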

Additional observations from a re-analysis of the deposited data

Results flagged for a closer look

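The 3 HPRT1R YAC libraries held 14 contig peaks past 100 kb, in the part of the contig outside the comparisons above, and the 3 integrated libraries held 0. HPRT1 lists held 5, 5 and 6 there on the YAC and 0 when integrated. Which bases past 100 kb belong to the vector was not annotated, and the lists do not show whether integrated copies carry them. The 0 is therefore not shown to be closed DNA.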

How the results depend on the processing

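Peak lists give no read totals, and local depth differs between the formats, so a missing peak is not shown to be a closed site. With peaks of at least 3-fold enrichment, the clustering difference between HPRT1R and HPRT1 turned to 0.23, that of the coefficient of variation to 0.0757 and the spacing difference between formats to 0.42. At that fold the HPRT1R to HPRT1 density difference was 0.31 (p = 0.18, exact permutation test). There 2 width differences had a p below 0.05 before any adjustment. They were -0.36 between constructs (p = 0.005, exact permutation test) and 0.42 against chromosomes (p = 0.0312, exact sign-flip permutation test). At that fold 5 regions were in all 6 libraries and 1 was in 3 YAC and 0 integrated libraries. At a -log10 q of at least 5 the clustering difference was -0.18 (p = 0.28), that of the coefficient of variation -0.14 (p = 0.05) and the width difference between constructs -0.21 (p = 0.015, exact permutation tests), with 8 and 13 such regions. At that limit the formats differed by 2.05 in density, 2.29 in covered share, -1.55 in spacing and 0.13 in width. Where a peak had to cover at least 50% of its region, 7 and 17 regions were counted. With all peaks of the contig, 8 regions were in 3 YAC and 0 integrated libraries. This count takes in the part past 100 kb, where integrated libraries had no peak and may lack the DNA. Without peaks that start before 2 kb the clustering difference was -0.17 (p = 0.06, exact permutation test). In that setting the 10 windows were also redrawn from 2 kb to 100 kb. The cause of these shifts was not tested.

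Leaving out each library in turn, the contig to chromosome density difference was 2.07 to 2.29 (p = 0.0625, exact sign-flip permutation test, the smallest that 5 libraries allow). The counts of regions were 22 to 27 in all libraries left and 3 to 9 in all YAC and 0 integrated libraries. Same-numbered libraries did not clearly deviate together (correlations of -0.0886 to 0.0651), so no pairing by number was seen. The labels do not say whether such libraries were handled together, and these correlations cannot exclude it. With the replicate block the coefficient of variation difference was -0.19 with p = 0.0625 (exact sign-flip permutation test over pairs), and the block changed no other call.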
